A study of Arabidopsis thaliana with 8 samples.

Results

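The genes described here had a lower transcript signal than wild type in every transgenic line of a study of the growth regulators GRF3 and GIF1 in Arabidopsis thaliana. They were chosen on measured values. A nuclear or unassigned probe set (a group of array probes that reads 1 transcript or a few similar ones) was a member if it met these conditions: 2 or more of the 8 arrays with a log2 signal of 4 or higher, a double-line value at least 0.5 below Col-0 on the log2 scale among the arrays lettered A and again among those lettered B, and a mean at least 0.3 below Col-0 in each single line. Of 14005 probe sets with enough signal, 153 met these limits once 4 plastid-encoded ones were set aside. Plastid-encoded probe sets with no gene listed could not be recognised, so some may remain among the members. The same limits turned the other way, for genes higher in all 3 lines, were met by 252.

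Total RNA came from vegetative shoot apices with their leaf primordia, dissected from plants of 20 days grown on soil in short days of 8 h light and 16 h dark at 23 °C. The groups were wild type of the Col-0 accession, 35S:GIF1 (GIF1 driven by the 35S promoter, which is active in most tissues), rGRF3 (labelled a GRF3 overexpressor, and in published work a GRF3 that microRNA miR396 does not cleave) and rGRF3x35S:GIF1, which carries both transgenes and is called the double line here. Each genotype had 2 Affymetrix ATH1 arrays, lettered A and B. The labels do not say how many plants or independent transgenic lines an array stands for, or whether the letters mark separate cultures, so a p-value here reflects just the variation among these 8 arrays, and that variation may be technical. The 35S:GIF1, rGRF3 and double-line differences all share the same 2 Col-0 arrays.

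GRF proteins are plant transcription factors that bind DNA in the nucleus, and GIF proteins are co-activators that bind GRFs and bring chromatin remodelling complexes to their targets. In the shoot apex they prolong cell proliferation in young leaf primordia, and miR396 limits them as leaves mature. Plants with more GRF or GIF activity are known for larger leaves with more cells.

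Each array had 60.2% to 60.7% of its probe sets at a log2 signal of 4 or higher. The Col-0 values are deposited with 9 decimals and those of the other 6 arrays with 3, for which the labels give no reason; whether the Col-0 arrays were processed apart was not tested, and every value below that is set against Col-0 rests on them. Cell type markers were read where the annotation names a single gene. YAB3, a transcription factor gene of the lower side of leaf primordia, stood between 8.41 and 8.89 on all 8 arrays, and 3 genes of the stomatal lineage were also read, SPCH between 7.50 and 8.18, FAMA between 5.06 and 5.99 and MUTE between 3.84 and 4.82. TRY, a trichome gene, stood between 5.01 and 6.11. CLV3 and LAS, which mark a few cells of the meristem and leaf axils, stayed near the floor of 2.12, as did the root hair expansin gene EXPA7. Neither GIF1 nor GRF3 has a probe set with a single listed gene, so the genotype labels could not be checked against them. In bulk tissue, fewer cells of a type and less RNA per cell cannot be told apart.

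Of the 153 members, 81 had exactly 1 gene in the platform annotation, 1 had several and 71 had none listed. The single-gene members were all different genes, and 80 of them matched the gene table. The members' median log2 signal was 7.15 for Col-0, 6.24 for both single lines and 6.12 for the double line, against 7.68 to 7.69 over all tested probe sets in the 4 genotypes. In the double line 20 members had a mean under a log2 signal of 4, as did 9 in 35S:GIF1 and 13 in rGRF3. The sizes of those differences are not exact. Of all members, 125 were at 4 or higher on all 8 arrays, and 2 were at 4 or higher on the Col-0 arrays alone.

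As a description of what the rule selected, the members' median log2 difference from Col-0 was -0.57 for 35S:GIF1, -0.78 for rGRF3 and -0.95 for the double line. Over all tested probe sets these medians were -0.01, -0.02 and -0.01. The members ran from -3.77 to -0.53 in the double line, where 86 lay above -1, 67 at or under -1 and 11 at or under -2. The double line was the lowest of the 3 lines for 112 members, rGRF3 for 32 and 35S:GIF1 for 9. Since the rule set a stricter limit on the double line (0.5 below Col-0) than on each single line (0.3), nothing is read from this order. The double line was less low than the sum of the single-line differences for 138 members, whose choice against the same Col-0 arrays enters every term of that sum.

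No member passed limma's test across all tested probe sets in any line. At a Benjamini-Hochberg adjusted p under 0.05, 0 of 153 members were called in any of the 3 lines, against 0% of tested probe sets called lower in each line. At an unadjusted p under 0.05 there were 27, 46 and 68 members in 35S:GIF1, rGRF3 and the double line, against 198, 479 and 902 of all 14005 tested. With the replicate letter as a block 0 members were called, against 0.0357% of tested probe sets for the double line. With it 104, 134 and 150 members had an unadjusted p under 0.05, against 714, 1581 and 2450 of all 14005 tested. The rule had used the same differences, so nothing is read from either set of counts. The lowest adjusted p of a member in the double line was 0.117 without the block and 0.0514 with it, both for STZ.

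Both 35S:GIF1 arrays lay below both Col-0 arrays for 62 members (9.77% of tested probe sets did so), both rGRF3 arrays for 83 (14% of tested) and both double-line arrays for 97 (16.6% of tested). All 6 line arrays lay below both Col-0 arrays for 53 (3.62% of tested).  Within letters, all 6 differences from Col-0 were below 0 for 142 members (11.8% of tested). The rule fixes much of these counts, and nothing is read from them.

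**Figure D1:**
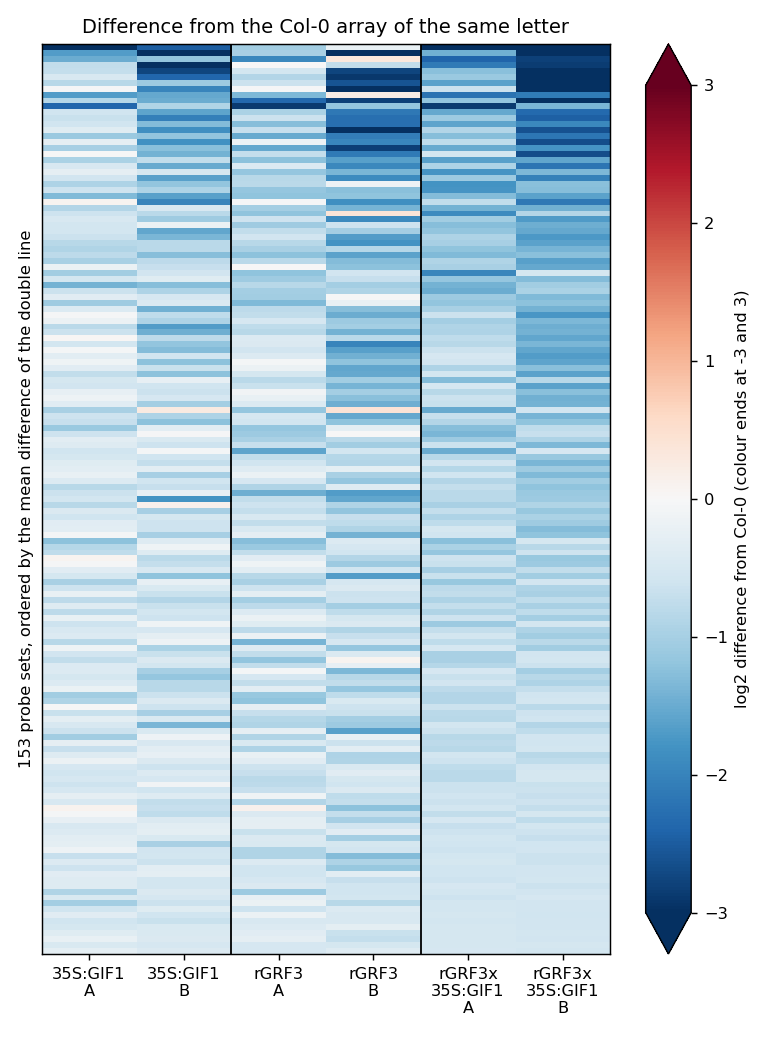
Log2 difference of each line's array from the Col-0 array of the same letter, for the 153 members (rows, ordered by the mean difference of the double line) and 6 arrays (columns). Blue is lower than Col-0, and the colour ends at -3 and 3. The double-line columns are blue throughout because the rule requires it, and 102 members were lower within letter B than within letter A there. Of all 14005 tested probe sets, 3149 had a double-line difference at or under -0.3 within letter B and 2088 within letter A.

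The lowest member in the double line was STZ (AT1G27730), a zinc-finger repressor of salt, cold and drought responses. Its log2 signal was 6.44 and 5.74 on the A and B arrays of Col-0, 2.53 and 3.27 in 35S:GIF1, 5.39 and 5.52 in rGRF3 and 2.50 and 2.15 in the double line. Both lines with 35S:GIF1 were near the array floor, while rGRF3 stood just under Col-0 and did not overlap with it. The double-line log2 difference was -3.77 (standard error 0.33, limma adjusted p = 0.117), a size that is not exact so near the floor.

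AT4G27280, which encodes a small calcium-binding EF-hand protein, stood at 9.71 and 9.11 in Col-0, 8.04 and 7.56 in 35S:GIF1, 8.37 and 9.32 in rGRF3 and 7.49 and 7.01 in the double line. Its 35S:GIF1 and double-line arrays lay below both Col-0 arrays, and its rGRF3 B array lay above the Col-0 array of the same letter. The double-line difference was -2.16 (standard error 0.39, limma adjusted p = 0.525). AT1G72940, from the family of TIR-domain disease resistance genes, had the same order of lines, at 6.64 and 5.74 in Col-0, 5.72 and 4.56 in 35S:GIF1, 5.83 and 5.58 in rGRF3 and 4.85 and 4.48 in the double line. Its double-line difference was -1.53 (limma adjusted p = 0.714), and its rGRF3 B array lay only a little under the Col-0 B array.

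HYH and AFR are light-signalling genes: HYH encodes a bZIP factor closely related to HY5, and AFR an F-box protein that acts in phytochrome A responses. On the A and B arrays HYH stood at 8.92 and 6.40 in Col-0, 8.43 and 4.01 in 35S:GIF1, 8.04 and 3.49 in rGRF3 and 7.81 and 2.81 in the double line. Within each letter Col-0 was the highest, but every B array lay below every A array, so the genotype groups overlapped. AFR stood at 8.35 and 6.59 in Col-0, 7.03 and 4.96 in 35S:GIF1, 7.14 and 5.38 in rGRF3 and 7.05 and 4.98 in the double line. Its 3 lines were close to each other within a letter and all lower than Col-0 there, with a mean double-line difference of -1.45 (standard error 1.11, limma adjusted p = 0.863, and adjusted p = 0.0577 with the replicate block).

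AT5G15950 encodes an S-adenosylmethionine decarboxylase, an enzyme of polyamine synthesis. Its log2 signal was 9.76 and 7.55 in Col-0, 9.04 and 4.79 in 35S:GIF1, 9.20 and 4.80 in rGRF3 and 8.50 and 4.06 in the double line. The B arrays of all 3 lines were far below the Col-0 B array, while the A arrays differed by much less. Its double-line difference of -2.37 had a standard error of 2.26 in the fit without the letter.

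IAGLU (AT4G15550) encodes an enzyme that joins glucose to the auxin indole-3-acetic acid. It stood at 5.75 and 5.37 in Col-0, 4.33 and 4.102 in 35S:GIF1, 4.90 and 4.36 in rGRF3 and 4.34 and 4.34 in the double line. All 6 line arrays lay below both Col-0 arrays, and 35S:GIF1 was lower than rGRF3 within each letter. The double-line difference was -1.22 (standard error 0.23, limma adjusted p = 0.564).

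AT1G48100, a polygalacturonase that cuts pectin, stood at 9.73 and 8.78 in Col-0, 9.82 and 6.80 in 35S:GIF1, 9.69 and 6.93 in rGRF3 and 8.98 and 6.63 in the double line. On the A arrays both single lines equalled Col-0 within 0.1 log2 units, so their place in the set rests on the B arrays. AT1G23205, of the family of pectin methylesterase and invertase inhibitors, stood at 7.71 and 8.32 in Col-0 and at 6.83 and 5.71 in the double line, a difference of -1.75 (limma adjusted p = 0.758). AT1G28600, a GDSL-type lipase or esterase gene, stood at 6.13 and 6.97 in Col-0, 5.54 and 5.67 in 35S:GIF1, 4.85 and 4.70 in rGRF3 and 4.55 and 5.03 in the double line. Its 6 line arrays lay below both Col-0 arrays and both lines with rGRF3 were lower than 35S:GIF1, with a double-line difference of -1.75 (standard error 0.31, limma adjusted p = 0.525). AT4G12830, an alpha/beta hydrolase gene, stood at 5.80 and 5.75 in Col-0 and 4.38 and 4.32 in the double line, a difference of -1.42 (standard error 0.20, limma adjusted p = 0.463). Its single lines were in between, at 4.91 and 5.27 in 35S:GIF1 and 4.79 and 4.35 in rGRF3.

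Among transcription factor genes, AT5G50915, of the basic helix-loop-helix family, stood at 6.59 and 5.81 in Col-0 and 5.32 and 4.34 in the double line, with a difference of -1.37 (limma adjusted p = 0.704). AT2G44940, of the AP2/ERF family, had a mean of 4.76 ± 0.53 (SD, n = 2) in Col-0 and 3.55 ± 0.92 in the double line, whose A array, at 2.90, is under a log2 signal of 4. The remaining genes among the 20 lowest were AT1G23130, AT1G13650, AT5G62210, AT3G56290, AT4G24700, AT5G62140 and AT1G20390, with double-line differences of -2.12, -1.72, -1.55, -1.55, -1.29, -1.27 and -1.24. AT1G23130 was above a log2 signal of 4 only in Col-0 (6.05 and 4.55), so its difference is not exact. Of members with no gene listed, the lowest in the double line stood at 6.20 and 8.06 in Col-0 and at 4.77 and 3.52 there, and the next at 7.76 and 6.92 in Col-0 and at 5.34 and 4.11 there.

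**Figure D2:**
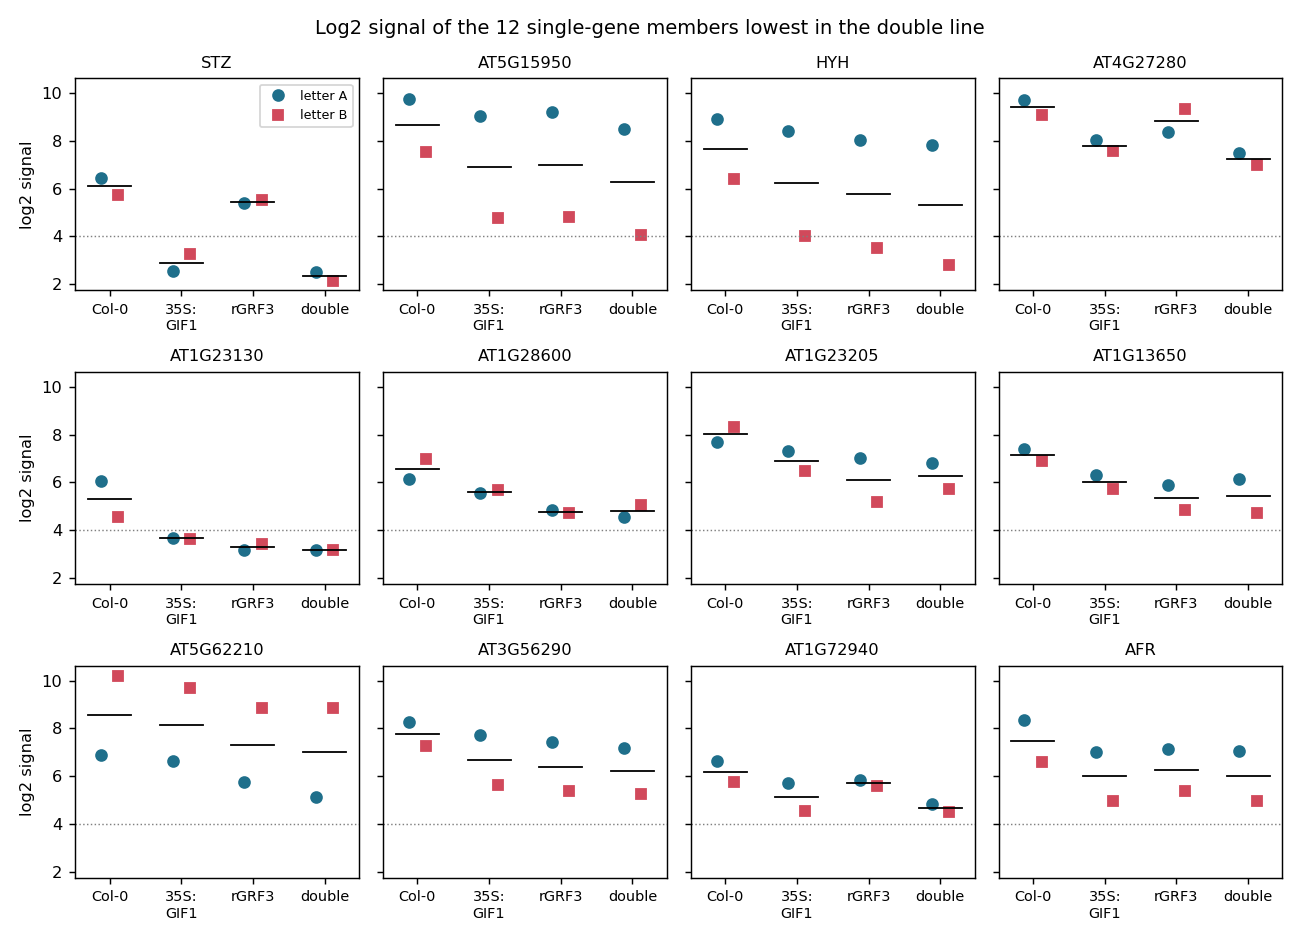
Log2 signal (vertical axis) of the 12 single-gene members with the lowest double-line difference, in Col-0, 35S:GIF1, rGRF3 and the double line. Circles are A arrays, squares B arrays, black bars the mean of the 2 arrays, and the dotted line a log2 signal of 4. For STZ and AT4G27280 the letters are close together, whereas for HYH and AT5G15950 they differ by more than the genotypes do.

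The other members with a name in the gene table were picked out after their values were seen. Transport genes were represented by SWEET2, which encodes a sugar transporter of the vacuole, and by AT3G21670 and AT1G68570, listed as NPF6.4 and NPF3.1 of the nitrate and peptide transporter family. SWEET2 stood at 6.95 and 5.60 in Col-0, 6.31 and 5.34 in 35S:GIF1, 5.48 and 3.91 in rGRF3 and 6.14 and 4.49 in the double line, so rGRF3 was lowest within both letters. NPF6.4 and NPF3.1 had double-line differences of -1.20 and -0.69. LHCB4.3, an antenna protein gene of photosystem II, had one of -0.71. The remaining named genes were MSRB6 (-0.57), which encodes a methionine sulfoxide reductase, POLD3 (-0.58), a subunit of DNA polymerase delta, AT5G55580 (-0.58), listed as mTERF9, and AT3G23090 (-0.56), listed as the microtubule-associated WDL3.

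At the edge of the rule, AT3G62820, of the same inhibitor family as AT1G23205, lay just inside with double-line differences of -1.49 for letter A and -0.50 for letter B. AT3G08620, a KH-domain RNA-binding protein gene, lay just inside with -0.63 and -0.50. AT2G41950 lay just outside, with -0.60 and -0.66 in the double line, and -0.299 in 35S:GIF1 where the limit is -0.3. AT5G02830 also lay outside, with double-line differences of -0.498 and -0.72.

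The difference between rGRF3 and 35S:GIF1 is made of 2 means that the rule itself limited, so it is given as a description and nothing is read from it. Of the members 120 of 153, or 78.4%, had a lower mean in rGRF3, against 53.5% of all tested probe sets, and their median log2 difference was -0.15 against -0.01. Among the genes chosen as higher in all 3 lines, by the same limits turned the other way, the median was 0.17. The medians were -0.12 within letter A and -0.20 within letter B, with 101 and 103 members lower. Both rGRF3 arrays lay below both 35S:GIF1 arrays for 23 members (15.0%, against 11.9% of tested probe sets) and above them for 6 (3.92%, against 9.84%). In limma's test 0 of the 153 members were called, against 0.00714% of tested probe sets. At an unadjusted p under 0.05 there were 8 members, against 156 of all 14005 tested, and 22 with the replicate block, against 635. The median was -0.02 without the B array of rGRF3, -0.03 without the A array of 35S:GIF1, -0.35 without the A array of rGRF3 and -0.30 without the B array of 35S:GIF1, where the remaining array was compared with a mean over A and B.

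AT1G28600, AT5G62210 and SWEET2 were the single-gene members furthest below 35S:GIF1 in rGRF3, with log2 differences of -0.83, -0.87 and -1.13. In the other direction STZ (2.56, limma adjusted p = 0.65), AT4G27280 (1.04) and AT1G72940 (0.57) were the furthest above. For STZ and AT4G27280 both rGRF3 arrays lay above both 35S:GIF1 arrays, and for AT1G28600 both lay below; the arrays of the other 3 overlapped.

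With all arrays and the filter on low values, the arrays lettered B and A differed for 24.6% of tested probe sets. They differed more often for these genes, mainly as a lower signal on B. Whether these genes vary more between arrays than other tested probe sets, in either direction, was not tested. The rule did not use the mean difference between letters, although its limits on the double line bound how far the double line's difference may vary between letters, which enters the spread this test is set against. In limma's fit with genotype, 61 of the 153 members were lower on the B arrays (39.9%, against 12.7% of tested probe sets) and 24 were higher (15.7%, against 11.8%). These counts depend on the arrays and the filter. Without either 35S:GIF1 array, 44 members were lower and 14 higher, and of all tested probe sets 449 were lower and 614 higher, in place of 1781 and 1658. Without either rGRF3 array those all-tested counts were 943 and 1026, and without either double-line array 835 and 961. With no filter on low values, 32 members were lower and 7 higher. With all arrays and the filter, 85 members, or 55.6%, differed by letter, against 24.6% of tested probe sets. A letter difference of at least 1 log2 unit in size was found for 29.4% of members and 4.97% of all tested probe sets, and for 51 members the letter difference was larger in size than the difference between the double line and Col-0.

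B was lower than A in all 4 genotypes for 67 members (43.8%, against 25.3% of tested probe sets) and higher in all 4 for 36 (23.5%, against 22.3%). All 4 B arrays lay below all 4 A arrays for 34 members (22.2%, against 15.6% of tested). They lay above them for 13 members (8.5%), a smaller share than the 13.6% of tested. Without the Col-0 arrays, a setting added after the data were seen, 62 members were lower and 17 higher. Among the genes higher in all 3 lines, 11.9% were lower on the B arrays and 21.4% higher. The difference between these 2 sets was not tested.

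Of the genes that passed, HYH fell by 4.13 (log2, standard error 0.39, limma adjusted p = 0.00262) and AT5G15950 fell by 3.83 (0.39, adjusted p = 0.00305) on the B arrays. AT1G64500, of the glutaredoxin family, fell by 2.39 (standard error 0.11, limma adjusted p = 0.00038), with 9.44 and 6.94 in Col-0 and 8.52 and 6.17 in the double line. AT1G48100 fell by 2.27 (adjusted p = 0.0083) and AT1G55960, a gene for a START-domain lipid-binding protein, fell by 2.01 (adjusted p = 0.000535). AFR fell by 1.92, AT4G24700 by 1.92 and AT1G65490 by 1.95 on the log2 scale, each with all 4 B arrays lower than the A array of the same genotype.

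AT5G62210, which encodes a protein like the embryo-specific ATS3, rose most among single-gene members on the B arrays, 9.83-fold (standard error 0.13 on the log2 scale, limma adjusted p = 0.00038). Its signal on the A and B arrays was 6.90 and 10.22 in Col-0, 6.64 and 9.69 in 35S:GIF1, 5.75 and 8.85 in rGRF3 and 5.14 and 8.87 in the double line. All 4 B arrays were above all 4 A arrays, and within each letter the order was Col-0, then 35S:GIF1, then the lines with rGRF3. AT4G28160 rose 2.46-fold. On the log2 scale AT5G01790 rose by 1.50, the copper amine oxidase gene AT1G31690 by 1.15, the tyrosine aminotransferase gene AT5G36160 by 0.86 and the pseudouridine synthase gene AT3G19440 by 0.72. STZ (-0.05, adjusted p = 0.902), AT4G27280 (-0.15), IAGLU (-0.28) and AT4G12830 (-0.05) did not pass by letter.

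The differences from Col-0 are given by letter class as a description, since the rule limited them in every class. The median in the double line was -0.95 for the 61 lower on B, -0.93 for the 24 higher on B and -0.96 for the 68 that did not pass. In rGRF3 the same medians were -0.85, -0.89 and -0.68, and in 35S:GIF1 -0.62, -0.65 and -0.52. What the letters mark is not given in the labels, and its part in the genotype differences was not tested beyond these values and the values within each letter.

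**Figure D3:**
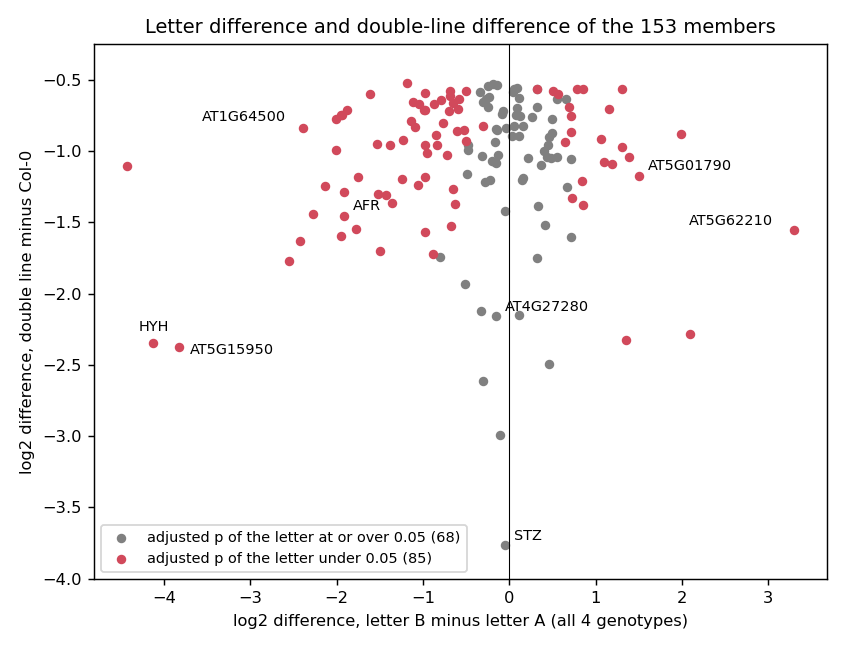
Each point is 1 of the 153 members, with its log2 difference between the B and A arrays of all 4 genotypes on the horizontal axis and its log2 difference between the double line and Col-0 on the vertical axis. Red points (85) had a limma adjusted p under 0.05 for the letter and grey points (68) did not. HYH and AT5G15950 lie far to the left and AT5G62210 far to the right, while STZ and AT4G27280 lie near 0.

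The rule was also applied to the 4 arrays of 1 letter alone, and the values on the other letter, which that choice had not used, were then read. This comparison was added after the data were seen. The A arrays alone gave 407 probe sets lower in all 3 lines, of which 77, or 18.9%, met the same limits on the B arrays, against 6.24% of all tested probe sets. All 3 lines were below Col-0 on the B arrays for 182 of the 407 (44.7%, against 33.2% of tested). Their median log2 difference from Col-0 on the B arrays was -0.06 for 35S:GIF1, -0.15 for rGRF3 and -0.21 for the double line, against 0.00, -0.02 and -0.01 over all tested.

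Chosen on the B arrays alone, 866 probe sets were lower in all 3 lines, and the 77 that met the limits on the A arrays were 8.89% of them, against 2.93% of tested. Their medians on the A arrays were -0.04, -0.09 and -0.13 in 35S:GIF1, rGRF3 and the double line, against -0.01, -0.02 and 0.00 over all tested. The medians on arrays outside the choice were lower than over all probe sets but much nearer to 0 than the medians of the 153 members, which were chosen on both letters. Whether the chosen probe sets vary more than all tested ones, in either direction, was not tested, so nothing further is read from these shares. On each letter the 3 lines share 1 Col-0 array. For genes higher in all 3 lines, 117 of the 396 chosen on A (29.5%) met the limits on B, against 6.44% of tested. Of the 892 chosen on B, 117 (13.1%) met them on A, against 2.97% of tested. The median of those 892 on A was -0.01 in 35S:GIF1, as over all tested.

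**Figure D4:**
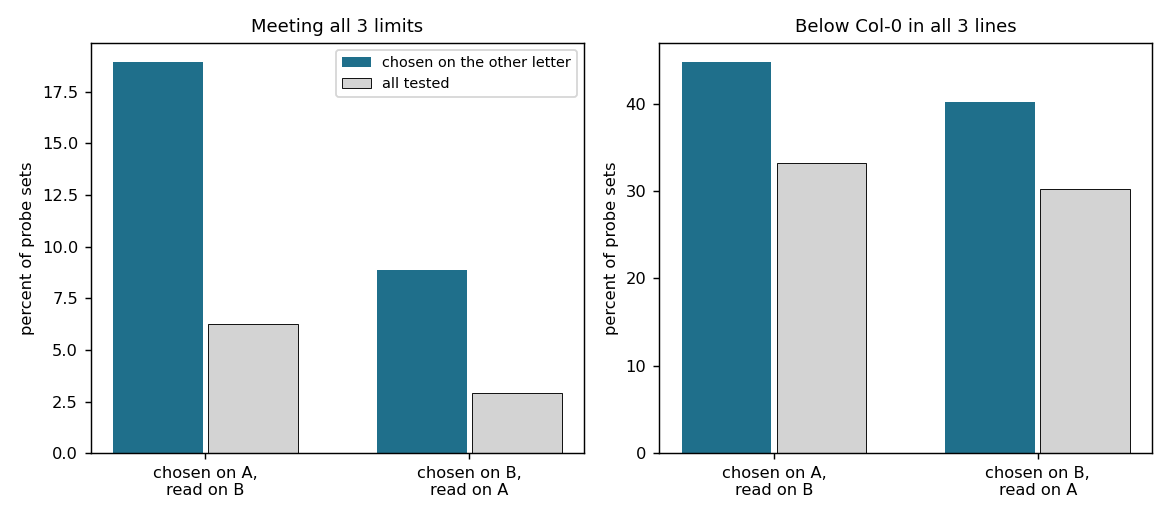
Percent of probe sets (vertical axis) that met all 3 limits (left) or lay below Col-0 in all 3 lines (right) on the arrays of 1 letter. Blue bars are probe sets chosen as lower on the other letter's arrays (407 chosen on A, 866 chosen on B), and grey bars all probe sets tested for that choice (13752 and 13843). Of those chosen on A, 18.9% met the limits on B against 6.24% of all tested. Whether the chosen probe sets vary more than all tested ones was not tested, and on each letter the 3 lines share 1 Col-0 array.

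Of 282 genes in 12 lists drawn up for pathways of the shoot apex and of stress, 32 had a tested single-gene probe set and 3 were members: STZ and AT4G27280 of the rapid stress, touch and wound response list and IAGLU of the auxin list. No gene of any list passed in any line against Col-0 (0 of 32 in limma's test). In the stress list the other 4 tested genes, WRKY6, WRKY22, WRKY53 and the ubiquitin ligase gene PUB23, had double-line log2 differences of 0.18, -0.19, 0.28 and 0.19, so the low values of STZ and AT4G27280 were not seen in them. In the auxin list GH3.5, which conjugates auxin to amino acids, had 1.79 and GH3.3 0.40, opposite in sign to IAGLU. The photosynthesis list, which does not hold the member LHCB4.3, had 7 tested genes and no member among them. In the double line 3 of the 7 were below 0, and the median of the 7 was 0.01. RCA, which encodes Rubisco activase, had -0.20 and PSAE1, a photosystem I subunit gene, -0.08. LHCB4.1 had 0.11, LHCB4.2 0.18 and PORB 0.73. No member was found among the 4 anthocyanin genes, the 3 gibberellin genes, the 3 sugar starvation genes, the 2 defensin genes, the 2 mitotic genes, the heat shock gene or the clock gene. The 3 tested genes of the stomatal lineage, FAMA, MUTE and SPCH, were not members and had double-line differences of -0.67, -0.52 and -0.17.

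By their order in the gene table, 10 of the single-gene members lay within 10 protein-coding genes of another member, as 5 pairs. The share among all tested genes is not given here, so nothing is read from these pairs. The closest were AT5G55580 and AT5G55620, 4 genes apart. Of the others, AT2G39650 and AT2G39710 were 6 apart, AT5G63060 and AT5G63100 were 7 apart, AT5G62140 and AT5G62210 were 8 apart, and AT2G41040 and AT2G41120 were 10 apart. AT5G62140 and AT5G62210 differed in opposite directions by letter, the former lower on the B arrays and the latter higher.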

How the data were processed

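Total RNA of 8 samples, 4 genotypes with 2 arrays each, was read on ATH1 arrays. Per the submitters' processing notes, which give no versions, the authors used GCRMA and limma, and the table they deposited holds log2 expression values. The genome build was not given in the sources used here. From the 22810 probe sets, 64 controls were left out, and the 14005 that reached log2 4 on 2 or more arrays were tested. A mean per genotype was fitted over the 8 arrays in limma 3.58.1 in R 4.3.3 (lmFit, eBayes without trend), and the letter was fitted beside genotype. P-values were adjusted by Benjamini-Hochberg over all tested probe sets and called at 0.05. The fits were tested on simulated data with independent noise on each array and a letter shift in a small part of the probe sets. A letter difference as widespread as the one in these data was not simulated. Tables and plots used Python 3.11.15, pandas 2.3.3 and matplotlib 3.10.9.

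Gene names come from the platform annotation and, by Entrez identifier, from the TAIR10.1 gene table. The members and lists were chosen with earlier results of these data known. Genes named by rule were the 20 lowest single-gene members in the double line, members of the 12 lists and those at the rule's edge. They also included the 5 lowest p-values and largest differences per direction by letter, and the 3 largest differences per direction between single lines. Other members with a name in the gene table were picked out after their values were seen.

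Deviations from the genotype means correlated between genotypes with r of 0.59 to 0.75 over the 6 pairs. Arrays of 1 letter were therefore treated as pairs in the within-letter differences and the block fit, on the strength of the data and not of the labels. Standard errors and adjusted p-values against Col-0 come from the fit without the letter unless the block is named. With the block, limma's adjusted p in the double line was 0.075 for IAGLU and AT5G50915 and 0.0837 for AT1G28600 and AT4G12830. It was 0.108 for AT1G72940, 0.125 for AT4G27280 and 0.206 for AT1G23205.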

Additional observations from a re-analysis of the deposited data

How the results depend on the processing

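No member was called against Col-0, or between the single lines, under any alternative run. With the replicate block, 5 of all tested probe sets were called in the double line instead of 1. For 35S:GIF1, the double line and rGRF3 minus 35S:GIF1 (1 call each), 0 were called with the compared arrays alone or with 1-gene probe sets alone. With no filter the counts were 0, 0 and 3, and 1 for rGRF3 (otherwise 0), and with array weights 0 in the double line. Leaving out 1 array gave 0 to 1, 0 and 0 to 1. By letter, of all tested 1781 were lower and 1658 higher, against 541 and 528 with no filter, 952 and 704 with 1-gene probe sets (fewer were tested), and 449 to 1320 and 614 to 1314 without 1 array. Members lower on B (61) were 32 with no filter and 32 with 1-gene probe sets, and those higher (24) were 7 and 12, and 14 to 24 without 1 array (14 without either 35S:GIF1 array). Without 1 array the members' medians ran from -0.70 to -0.45 in 35S:GIF1, -0.93 to -0.60 in rGRF3, -1.08 to -0.80 in the double line, -0.35 to -0.02 between rGRF3 and 35S:GIF1, and -0.25 to -0.20 by letter. The rule found 89 members with the single-line limit at -0.5, 83 with it met within each letter, 81 among 1-gene probe sets, and 137 to 884 without 1 array. It found 884 without Col-0 A, 425 without Col-0 B, 423 without double-line A and 235 without double-line B, since 1 limit then drops out. On the A or B arrays alone, a setting chosen after seeing the data, it found 407 or 866. For the other shifts the cause was not tested. With 2 arrays a genotype, their number limits the precision, and signals under log2 4 give no exact size.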
